A study of Mus musculus with 10 samples.

Results

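The genes described here encode the TGF-beta ligands (Tgfb1, Tgfb2 and Tgfb3), their receptors (Tgfbr1, Tgfbr2 and Tgfbr3) and the latent TGF-beta binding proteins (Ltbp1, Ltbp2, Ltbp3 and Ltbp4). They were chosen by name, and all 10 were found among the 47643 genes listed for each library: 9 by their name and Ltbp4, whose listed name carries a suffix, by its identifier. RNA was sequenced from mesenchymal cells sorted out of the Peyer's patches, the lymphoid structures of the small intestinal wall, of C57BL/6 mice; the labels give no genotype, treatment or age. Every library came from cells with the surface phenotype CD45-, EpCAM1-, TER119-, CD31- and Podoplanin+. The MRC libraries (n = 5) are the MAdCAM1+ cells of this gate, and the MCi libraries (n = 5) are the MAdCAM1- cells. The question was whether the 2 populations differed in these genes. Since no label ties a library to its own animal, the p-values speak only to the spread among these libraries, part or all of which may be technical.

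TGF-beta is secreted in a latent complex, in which the mature dimer is held by its own propeptide and is usually tethered through a latent binding protein to fibrillin and fibronectin fibres. Integrins and proteases release the ligand, which binds the type II receptor, recruits the type I receptor and leads to phosphorylation of SMAD proteins. In gut lymphoid tissue TGF-beta is known for directing B cells to switch to IgA.

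Libraries held 3941032 to 8738115 total exon reads, and 3 reads, the limit that a count of 0 allows, corresponded to 0.343 to 0.761 CPM (counts scaled to a common library size, here before the scaling factors). Madcam1 ranged from 30.2 to 85.6 CPM in MRC and from 0 to 2.37 CPM in MCi, which is the gate itself and not a finding. Replicates 4 and 5 of both groups were deeper, at 6142562 to 8738115 reads, against 3941032 to 4761017 reads in replicates 1 to 3. The labels name no batch, and a batch shared by these replicates was not tested. MRC4 and MRC5 stood apart from the other libraries. Their summed level over 11 epithelial marker genes was 17642 and 23787 CPM, against 10.7 to 3066 CPM in MRC1 to MRC3 and 15.9 to 1272 CPM in MCi, and 11 of the 11 genes were higher in both than in the other 8 libraries. Epcam, whose protein the sort excluded, was at 904 and 856 CPM in MRC4 and MRC5, against 0.237 to 107 CPM in MRC1 to MRC3 and 0 to 69.0 CPM in MCi. Over 8 markers of fibroblastic mesenchyme the sum was 26473 and 26402 CPM in MRC4 and MRC5, 91135 to 134210 CPM in MRC1 to MRC3 and 44605 to 75842 CPM in MCi. Pdpn, the gene of the podoplanin that the sort required, was lowest in MRC4 and MRC5 at 21.3 and 25.5 CPM, against 57.9 to 95.6 CPM in MCi. The mitochondrial share of reads was 6.66% in MRC4, 4.28% in MRC5 and 0.706% to 1.58% elsewhere. Over 10 leukocyte markers the sum was 25.4 and 86.7 CPM in MRC4 and MRC5. It was 15.2 to 31.9 CPM in MRC1 to MRC3 and 20.5 to 44.3 CPM in MCi. Of these 10 markers, 3 were higher in both MRC4 and MRC5 than in the other 8 libraries, as were 21.6% of all tested genes. The leukocyte marker Lyz2 went the other way in MRC4, at 0.469 CPM against 10.4 to 36.8 CPM in the other libraries. Results are therefore given with and without MRC4 and MRC5.

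With all 10 libraries, 0 of the 10 genes passed the test between MRC and MCi (edgeR quasi-likelihood test, Benjamini-Hochberg adjusted p under 0.05 over 12127 tested genes), where 0.437% of all tested genes were called (0.0742% higher and 0.363% lower in MRC). At an unadjusted p under 0.05 by edgeR there was 1 gene, Ltbp2, with a lower level in MRC, a threshold that 16.7% of all tested genes passed (6.09% with a lower level in MRC). DESeq2 also called 0 of the 10, against 7.02% of all tested genes (2.48% lower in MRC). The median log2 fold change, MRC minus MCi, was −0.32 over the 10 genes and 0.01 over all tested genes. For 0 of the 10 genes were the 5 MRC values all on one side of the 5 MCi values, a separation that 3.79% of all tested genes showed. All values are levels in a bulk population, in which fewer cells of a type and less RNA per cell cannot be told apart.

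**Figure D1:**
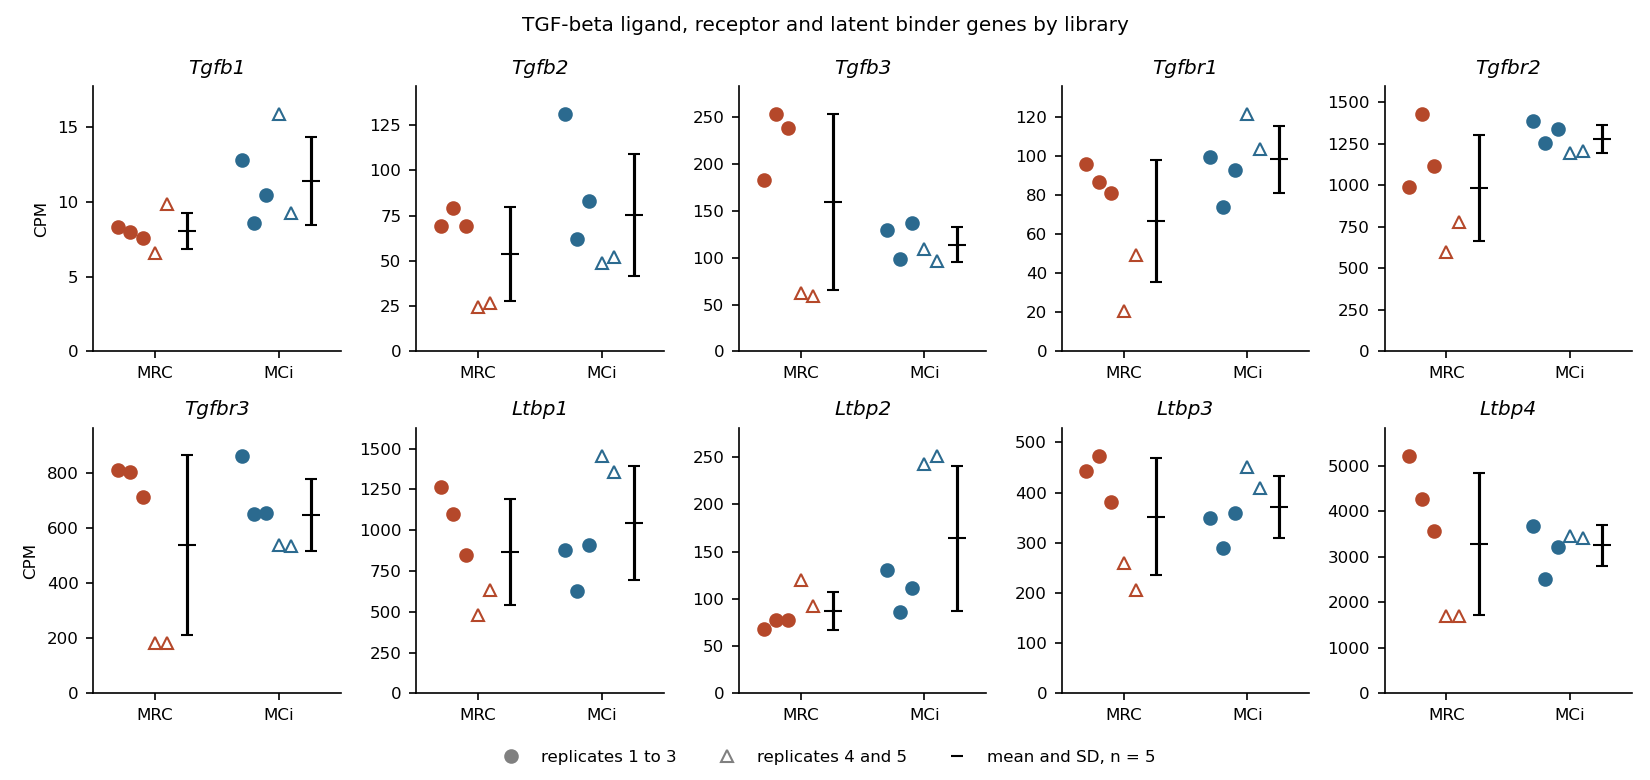
CPM of each gene (vertical axes, each from 0) in the 5 MRC and 5 MCi libraries, with replicates 1 to 3 as filled circles, replicates 4 and 5 as open triangles, and the mean with its SD (n = 5) beside them. The open MRC triangles lie below all other points for 7 of the 10 genes, but not for Tgfb1, Ltbp1 and Ltbp2.

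Among the ligands, Tgfb1 (ENSMUSG00000002603, GRCm38 chromosome 7, 25687002 to 25705077, plus strand) encodes the isoform best known in the immune system. It had 8.31, 7.98, 7.60, 6.57 and 9.87 CPM in MRC1 to MRC5, against 12.8, 8.59, 10.5, 15.8 and 9.28 CPM in MCi1 to MCi5. The MRC values were close together, MRC5 alone reached into the MCi range, and counts were low, at 31 to 115 reads per library. On average MRC had 8.07 ± 1.20 CPM and MCi had 11.4 ± 2.95 CPM (SD, n = 5 each), with a log2 fold change of −0.50 ± 0.25 (SE; edgeR adjusted p = 0.351).

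Tgfb2 (ENSMUSG00000039239, chromosome 1, 186622792 to 186705989, minus strand), the ligand that binds poorly to its type II receptor without the co-receptor betaglycan, had 69.1, 79.1, 69.3, 24.7 and 26.5 CPM in MRC1 to MRC5, against 131, 61.9, 82.8, 48.6 and 52.4 CPM in MCi1 to MCi5. MRC4 and MRC5 were below every other library, MRC1 to MRC3 lay within the MCi range, and MCi4 and MCi5 were the lowest of MCi. MRC averaged 53.7 ± 26.0 CPM and MCi 75.3 ± 33.7 CPM (SD, n = 5 each), and the log2 fold change was −0.49 ± 0.40 (SE; edgeR adjusted p = 0.589).

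Tgfb3 (ENSMUSG00000021253, chromosome 12, 86056744 to 86079041, minus strand), a ligand made largely by mesenchymal cells, had 183, 253, 239, 62.8 and 59.2 CPM in MRC1 to MRC5, against 130, 98.7, 137, 109 and 96.5 CPM in MCi1 to MCi5. MRC1 to MRC3 were above all MCi libraries, and MRC4 and MRC5 were below all of them. On average MRC had 159 ± 93.6 CPM and MCi had 114 ± 18.2 CPM (SD, n = 5 each), and the log2 fold change was 0.48 ± 0.40 (SE; edgeR adjusted p = 0.600). Of the exon reads of Tgfb3, 60.5% to 70.1% per library were counted as unique, and Ltbp4 followed with 90.5% to 94.9%, and reads placed at several sites can be divided between similar sequences.

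The promoters of Tgfb1 and Tgfb2 are shown because these ligands behaved differently across MRC libraries. Tgfb2 had its lowest levels in MRC4 and MRC5. Tgfb1, at low counts, had its lowest level in MRC4 and its highest level within MRC in MRC5. Of the 10 genes, 8 had an entry in the RefSeq promoter table used here (GRCm38.p6), and each sequence is the 250 bases before the start, 5′ to 3′ on the gene's strand, at chr7:25686752-25687001 (plus strand) for Tgfb1 and chr1:186705990-186706239 (minus strand) for Tgfb2. Capitals mark matches to TATAAA, the core of the TATA box, and to CAGAC, a SMAD-binding element, searched on both strands and not overlapping each other here.
Tgfb1: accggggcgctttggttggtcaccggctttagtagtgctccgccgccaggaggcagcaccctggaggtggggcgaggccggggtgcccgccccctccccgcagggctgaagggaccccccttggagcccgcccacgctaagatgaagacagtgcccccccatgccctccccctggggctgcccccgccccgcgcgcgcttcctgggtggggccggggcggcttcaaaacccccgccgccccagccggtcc
Tgfb2: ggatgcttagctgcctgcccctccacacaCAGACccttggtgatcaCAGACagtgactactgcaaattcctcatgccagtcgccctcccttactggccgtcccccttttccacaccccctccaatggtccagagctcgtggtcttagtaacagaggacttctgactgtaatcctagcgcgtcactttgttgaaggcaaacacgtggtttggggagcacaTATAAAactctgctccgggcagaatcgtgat
The Tgfb2 sequence held 1 match to TATAAA, which 12.4% of the 32851 promoters in the table held, and 2 to CAGAC, which 42.2% held. The Tgfb1 sequence held neither and had a GC content of 75.2%, against 53.6% for Tgfb2 and a median of 52.4% over all promoters. The SMAD palindrome GTCTAGAC, which 0.167% of promoters held, was in none of the windows of the 8 genes. Among the 8 genes TATAAA was in Tgfb2 alone. CAGAC was also in windows of Tgfbr1 (0 and 1 matches by window), Tgfbr2, Ltbp1 (1 and 2 by window), Ltbp2 (2 matches) and Ltbp3. It was in none of Ltbp4. Like Tgfb2, Ltbp4 had its lowest levels in MRC4 and MRC5, and Ltbp2 did not. These matches describe the letters only.

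Among the receptors, Tgfbr1 (ENSMUSG00000007613, chromosome 4, 47353222 to 47414931, plus strand), the type I kinase that phosphorylates SMAD2 and SMAD3, had 95.7, 86.8, 80.8, 20.7 and 49.2 CPM in MRC1 to MRC5, against 99.4, 73.8, 92.5, 121 and 104 CPM in MCi1 to MCi5. MRC1 to MRC3 lay inside the MCi range, and MRC4 and MRC5 below it. MRC averaged 66.6 ± 31.1 CPM and MCi 98.1 ± 17.2 CPM (SD, n = 5 each; log2 fold change −0.56 ± 0.35 SE, edgeR adjusted p = 0.456).

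Tgfbr2 (ENSMUSG00000032440, chromosome 9, 116087698 to 116175363, minus strand), the type II kinase that binds the ligand, had 990, 1427, 1117, 599 and 777 CPM in MRC1 to MRC5, against 1390, 1256, 1336, 1196 and 1206 CPM in MCi1 to MCi5. The MCi values lay close together, and the MRC values reached from below to above them. On average MRC had 982 ± 318 CPM and MCi had 1277 ± 84.0 CPM (SD, n = 5 each; log2 fold change −0.38 ± 0.24 SE, edgeR adjusted p = 0.456).

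Tgfbr3 (ENSMUSG00000029287, chromosome 5, 107106570 to 107289629, minus strand) encodes betaglycan, the co-receptor that presents ligand to the type II receptor. It had 809, 802, 714, 183 and 182 CPM in MRC1 to MRC5, against 860, 649, 653, 539 and 534 CPM in MCi1 to MCi5. MRC4 and MRC5 were almost identical to each other and far below the other 8 libraries. MRC averaged 538 ± 327 CPM and MCi 647 ± 132 CPM (SD, n = 5 each; log2 fold change −0.27 ± 0.44 SE, edgeR adjusted p = 0.822).

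Among the latent binders, Ltbp1 (ENSMUSG00000001870, chromosome 17, 75005568 to 75392512, plus strand), which links the latent complex to the matrix, had 1266, 1097, 850, 480 and 633 CPM in MRC1 to MRC5, against 877, 625, 909, 1452 and 1353 CPM in MCi1 to MCi5. MRC4 and MCi4 were the lowest and the highest of all libraries, and the groups overlapped. On average MRC had 866 ± 323 CPM and MCi had 1043 ± 348 CPM (SD, n = 5 each; log2 fold change −0.27 ± 0.32 SE, edgeR adjusted p = 0.732).

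Ltbp2 (ENSMUSG00000002020, chromosome 12, 84783212 to 84876532, minus strand), a family member that does not bind the latent complex covalently and is known for its association with fibrillin microfibrils, had 68.4, 77.5, 77.3, 120 and 92.8 CPM in MRC1 to MRC5, against 130, 86.2, 112, 243 and 251 CPM in MCi1 to MCi5. Replicates 4 and 5 were the highest libraries within each group, the reverse of most of the other genes in MRC. MRC averaged 87.1 ± 20.2 CPM and MCi 164 ± 76.9 CPM (SD, n = 5 each; log2 fold change −0.92 ± 0.31 SE, unadjusted p = 0.0139 and adjusted p = 0.213 by edgeR). MCi4 and MCi5 also had summed mesothelial markers of 556 and 520 CPM, against 9.75 to 92.5 CPM in MCi1 to MCi3, and the part of this in the Ltbp2 level was not tested. By DESeq2 the log2 fold change of Ltbp2 was −0.89 (adjusted p = 0.0853). With a covariate for replicates 4 and 5 it was −0.82 (edgeR adjusted p = 0.0518). Over the 27 alternatives run it stayed between −1.28 and −0.55 and was called in 1.

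Ltbp3 (ENSMUSG00000024940, chromosome 19, 5740904 to 5758532, plus strand), which binds the latent complex covalently, had 443, 472, 381, 260 and 205 CPM in MRC1 to MRC5, against 348, 290, 359, 451 and 409 CPM in MCi1 to MCi5. MRC4 and MRC5 were again below the other 8 libraries. On average MRC had 352 ± 116 CPM and MCi had 372 ± 61.5 CPM (SD, n = 5 each; log2 fold change −0.08 ± 0.25 SE, edgeR adjusted p = 0.918).

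Ltbp4 (ENSMUSG00000040488, chromosome 7, 27305136 to 27337692, minus strand), which is needed for elastic fibre assembly and binds the latent complex weakly, had 5200, 4267, 3567, 1703 and 1690 CPM in MRC1 to MRC5, against 3675, 2511, 3203, 3451 and 3419 CPM in MCi1 to MCi5. The highest and the lowest values of all 10 libraries were both in MRC, so that nearly equal means came from very different libraries. MRC averaged 3285 ± 1562 CPM and MCi 3252 ± 447 CPM (SD, n = 5 each; log2 fold change 0.01 ± 0.33 SE, edgeR adjusted p = 0.990).

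Without MRC4 and MRC5, Tgfb3 was the 1 gene of the 10 that differed between MRC1 to MRC3 and the 5 MCi libraries, where 1.03% of 12411 tested genes were called (0.379% higher and 0.653% lower in MRC). Its mean was 225 CPM in MRC1 to MRC3 and 114 CPM in MCi, a ratio of 1.97, and its log2 fold change was 0.98 ± 0.17 (SE; edgeR adjusted p = 0.0249). DESeq2 called it as well, at 0.99 with an adjusted p of 2.74e-05, where it called 4.36% of all tested genes. With unique exon reads alone the log2 fold change was 0.94 with an adjusted p of 0.0555 (edgeR). Leaving out 1 of the 8 libraries at a time kept its adjusted p at or above 0.0269 and ended the call for 5 of them, namely MRC2 (adjusted p = 0.149), MRC3 (0.0949), MCi2 (0.0556), MCi4 (0.0670) and MCi5 (0.0595), all by edgeR. The summed fibroblastic mesenchyme markers were likewise above all MCi libraries in MRC1 to MRC3, but not gene by gene. The collagen genes Col1a1, Col1a2 and Col3a1 and the proteoglycan gene Dcn, 4 of the 8, lay above all MCi libraries, and 3 (Pdgfrb, Pdpn and Lum) overlapped with MCi. Pdgfra, a receptor gene widely used to mark fibroblasts, lay wholly below, at 713, 928 and 776 CPM in MRC1 to MRC3 against 1154 to 2343 CPM in MCi. The part of these markers in the Tgfb3 level was not tested.

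In the same comparison, 3 of the 10 genes had MRC1 to MRC3 entirely on one side of MCi, as did 9.57% of all tested genes. They were Tgfb3 on the high side and Tgfb1 and Ltbp2 on the low side. The Tgfb1 mean was 7.96 CPM in MRC1 to MRC3 against 11.4 CPM in MCi, with a log2 fold change of −0.51 ± 0.28 (SE; edgeR adjusted p = 0.532). For Ltbp2 the mean was 74.4 CPM in MRC1 to MRC3 against 164 CPM in MCi, with a log2 fold change of −1.14 ± 0.36 (SE; edgeR adjusted p = 0.218), which DESeq2 called with an adjusted p of 0.0277. The median log2 fold change over the 10 genes was −0.01, as over all tested genes.

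With replicates 1 to 3 of both groups alone, 0 of the 10 genes were called by edgeR, against 0.801% of 11866 tested genes (0.236% higher and 0.565% lower in MRC). There were 2 genes at an unadjusted p under 0.05, a threshold that 9.73% of all tested genes passed: Tgfb3 with a log2 fold change of 0.89 ± 0.20 (SE; edgeR adjusted p = 0.0984) and Ltbp2 with −0.55 ± 0.19 (SE; edgeR adjusted p = 0.342). DESeq2 called Tgfb3 alone of the 10, with an adjusted p of 0.00444, and 3.08% of all tested genes. Ltbp1, Ltbp3 and Ltbp4 had log2 fold changes of 0.42, 0.38 and 0.48 there, none past the threshold by edgeR (adjusted p = 0.633, 0.527 and 0.554).

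With replicates 4 and 5 alone, 9 of the 10 genes were lower in MRC (edgeR adjusted p from 0.00132 to 0.0242), where 26.2% of 13203 tested genes were called (15.5% higher and 10.7% lower in MRC). Tgfbr1 fell by 1.77 ± 0.39 and Tgfbr3 by 1.62 ± 0.16 on the log2 scale (SE), followed by Ltbp1 at −1.41 ± 0.18, Ltbp2 at −1.28 ± 0.20 and Ltbp4 at −1.09 ± 0.15. The other genes called were Tgfb2 at −1.05 ± 0.22, Ltbp3 at −0.95 ± 0.20, Tgfbr2 at −0.88 ± 0.18 and Tgfb3 at −0.82 ± 0.18. Tgfb1 was not called, at −0.68 ± 0.47 (SE; edgeR adjusted p = 0.337). The median was −1.07 over the 10 genes and −0.09 over all tested genes. This fit has 2 libraries in each group. Without MCi4 it called 3 of the 10 genes (Tgfbr3, Ltbp1 and Ltbp2), all lower in MRC, and 12.1% of all tested genes (2.98% lower). Without MCi5 it called 4 (those and Tgfbr1), all lower in MRC, and 12.3% of all tested genes (3.01% lower). In both, the lone MCi library was assumed to vary like the MRC pair. MCi4 and MCi5 were the most alike pair of either group, with a chi-square per degree of freedom between their counts of 7.77, against 20.8 to 215 for the other pairs, where 1 would be counting noise alone.

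**Figure D2:**
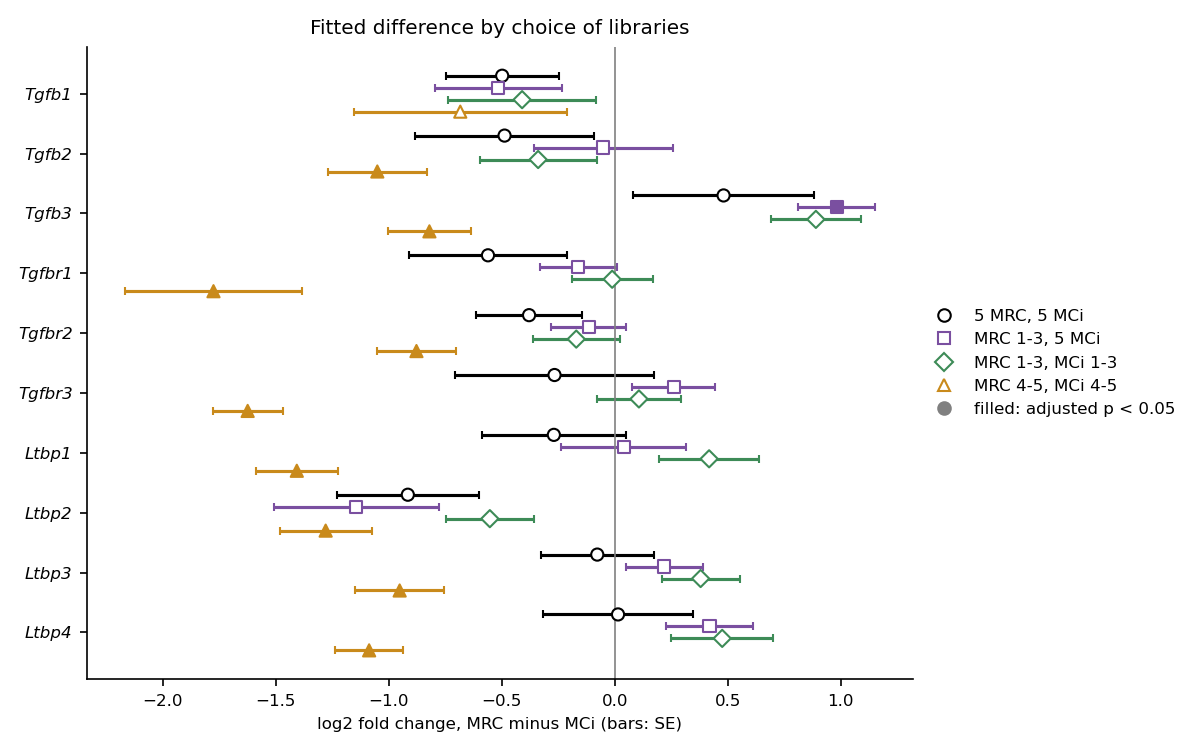
Fitted log2 fold change, MRC minus MCi (horizontal axis), with its SE for each gene under 4 choices of libraries, with filled symbols where the edgeR adjusted p was under 0.05. With replicates 4 and 5 all 10 estimates lie below 0, and Tgfb3 is the gene with the most positive estimate under the other choices, at 0.48, 0.98 and 0.89.

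The difference between the library sets was itself tested, as the MRC minus MCi log2 fold change in replicates 4 and 5 minus that in replicates 1 to 3. It was negative and past the threshold for 6 of the 10 genes (edgeR adjusted p from 0.00886 to 0.0361), where 10.4% of 12127 tested genes were called (5.76% positive and 4.68% negative). The differences were −1.75 for Ltbp1, −1.68 for Tgfbr1, −1.66 for Tgfbr3, −1.64 for Tgfb3, −1.49 for Ltbp4 and −1.27 for Ltbp3. Those of Tgfb2 (−0.64), Tgfbr2 (−0.63), Ltbp2 (−0.66) and Tgfb1 (−0.20) did not pass (edgeR adjusted p = 0.315, 0.172, 0.168 and 0.842). Epithelial, fibroblastic and mitochondrial transcripts moved with the same library sets, by the values given above, and their part in these differences was not tested.

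Within MRC, both MRC4 and MRC5 were below the other 8 libraries for 7 of the 10 genes, as for 18.6% of all tested genes, and above them for 0 of the 10, against 21.6% of all tested genes. The 7 were Tgfb2, Tgfb3, Tgfbr1, Tgfbr2, Tgfbr3, Ltbp3 and Ltbp4. The mean of MRC4 and MRC5 over that of MRC1 to MRC3 was 0.236 for Tgfbr3, 0.271 for Tgfb3, 0.353 for Tgfb2, 0.390 for Ltbp4 and 0.398 for Tgfbr1. It was 0.520 for Ltbp1, 0.538 for Ltbp3 and 0.584 for Tgfbr2. For Ltbp2 the ratio was 1.43, so this gene did not share the low levels. For Tgfb1 it was 1.03, from 2 unlike libraries. MRC4, at 6.57 CPM, was the lowest of all 10 libraries, and MRC5, at 9.87 CPM, was the highest of MRC. The part of leukocyte transcripts in the Tgfb1 level of MRC4 and MRC5 was not tested. Within MCi the corresponding ratios were 2.26 for Ltbp2, 1.75 for Ltbp1 and 0.550 for Tgfb2, with the other 7 genes between 0.744 and 1.29.

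**Figure D3:**
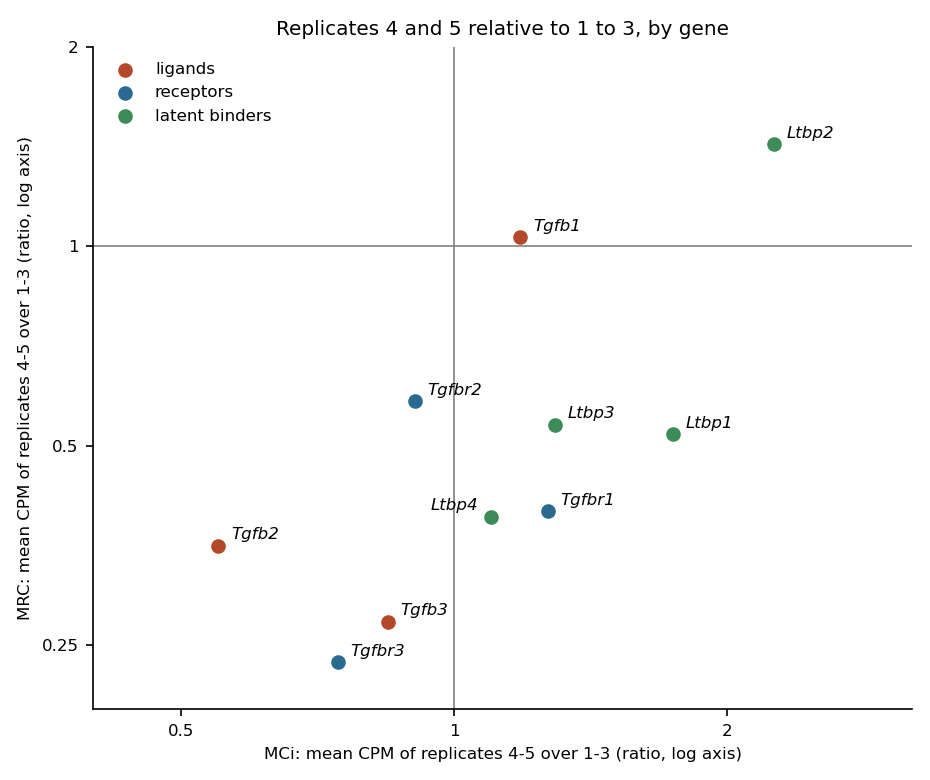
Ratio of the mean CPM of replicates 4 and 5 to that of replicates 1 to 3, in MRC (vertical, log axis) and in MCi (horizontal, log axis), with 1 point per gene coloured by role. In MRC 8 of the 10 genes lie below a ratio of 1, down to 0.236 for Tgfbr3, and in MCi Ltbp2 lies farthest to the right at 2.26.

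Composition within each role was compared as shares of CPM per kilobase of exon, which allows levels of different genes to be set side by side within a library. Tgfb3 made up most of the ligand RNA, 68.1% to 82.7% in MRC and 58.4% to 69.6% in MCi, and was the highest ligand in all 10 libraries. The Tgfb2 share was 17.3%, 14.9%, 14.0%, 16.9% and 17.8% in MRC1 to MRC5, against 34.4%, 24.9%, 24.4%, 18.1% and 22.1% in MCi1 to MCi5. These ranges did not overlap, although MRC5 and MCi4 came close, and MRC4 and MRC5, with lower Tgfb2 levels, had shares near those of the other MRC libraries. Tgfb2 was the only one of the 10 genes whose share within its role did not overlap between the groups. Its share also depends on Tgfb3, of whose exon reads 60.5% to 70.1% per library were unique, and on Tgfb1, at 31 to 115 reads per library. Set against Tgfb3 alone, the groups overlapped. Tgfb3 was 3.83 to 5.90 times Tgfb2 per kilobase in MRC and 1.70 to 3.84 times in MCi. These shares and ratios were not tested. The Tgfb1 share was 3.21% to 4.41% in MRC1 to MRC3, 9.57% and 14.1% in MRC4 and MRC5, and 6.56% to 12.5% in MCi.

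Among receptors Tgfbr2 had the highest share in all 10 libraries, 59.9% to 82.2% in MRC and 66.5% to 72.1% in MCi. Tgfbr3 had 28.2% to 35.8% in MRC1 to MRC3, 17.9% and 14.0% in MRC4 and MRC5, and 23.3% to 30.1% in MCi. Tgfbr1 stayed between 2.02% and 4.24% in MRC and between 3.03% and 5.28% in MCi. Among latent binders Ltbp4 held 70.2% to 78.9% in MRC and 67.7% to 77.3% in MCi, the highest share in all 10 libraries. The Ltbp2 share was 0.820% to 1.32% in MRC1 to MRC3, 3.91% and 3.04% in MRC4 and MRC5, and 2.05% to 3.99% in MCi.

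**Figure D4:**
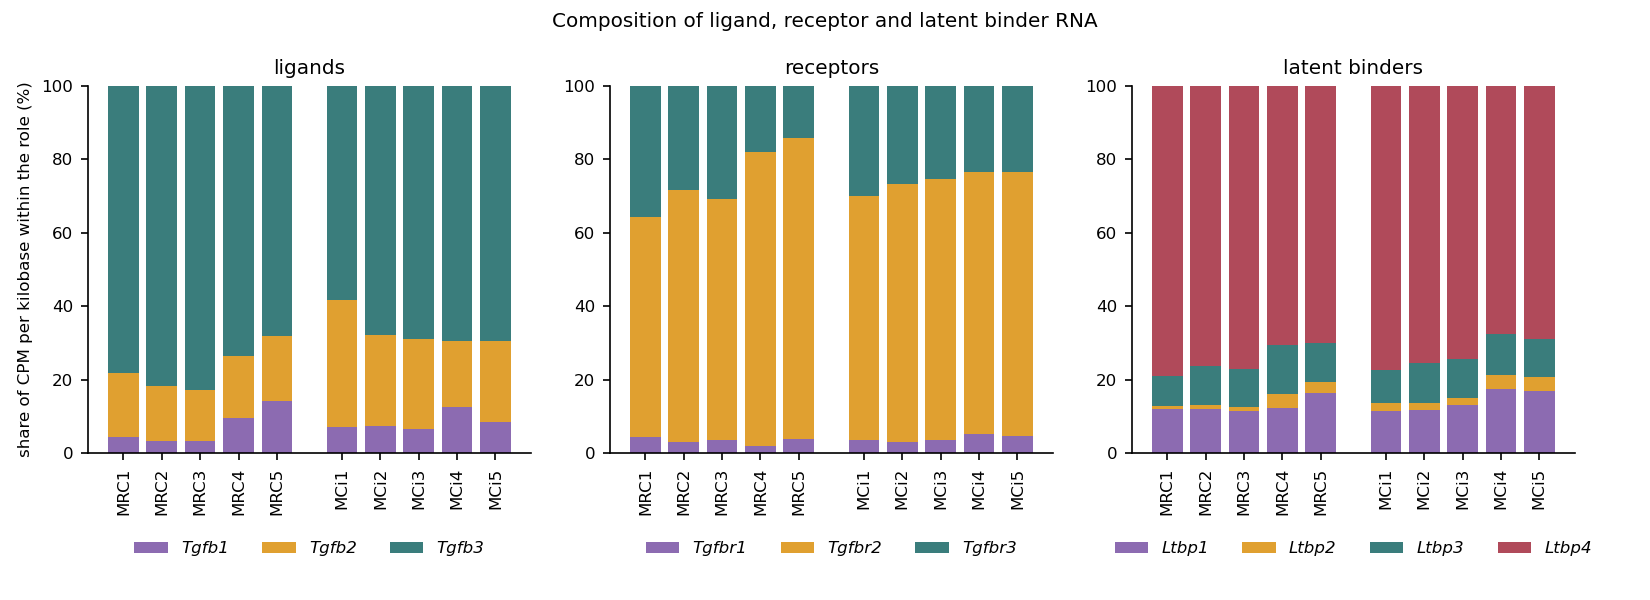
Share of each gene (vertical axis, percent of the CPM per kilobase of its role) in every library, MRC1 to MRC5 and then MCi1 to MCi5, for ligands, receptors and latent binders. Tgfb3, Tgfbr2 and Ltbp4 are the largest segment of their role in all 10 libraries, and the Tgfb2 segment is at most 17.8% in MRC and at least 18.1% in MCi.

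Ranked by the mean level per kilobase, the 10 genes had the same order in both groups, from Ltbp4 (508 ± 242 CPM per kilobase in MRC and 503 ± 69.1 in MCi, SD, n = 5 each) to Tgfb1 (2.96 ± 0.44 in MRC and 4.18 ± 1.08 in MCi). Between them in MRC stood Tgfbr2 at a mean of 205 CPM per kilobase, Ltbp1 at 82.6, Tgfbr3 at 82.2, Ltbp3 at 67.9, Tgfb3 at 47.1, Ltbp2 at 10.6, Tgfbr1 at 10.2 and Tgfb2 at 9.28. In MCi the same genes stood at 267 (Tgfbr2), 99.5 (Ltbp1), 98.9 (Tgfbr3), 71.6 (Ltbp3), 33.7 (Tgfb3), 20.1 (Ltbp2), 15.0 (Tgfbr1) and 13.0 CPM per kilobase (Tgfb2). Not every step of this order was larger than the spread. Ltbp1 was above Tgfbr3 in 2 of 5 libraries of each group, and in both groups the ranges of Ltbp2 and Tgfbr1, and those of Tgfbr1 and Tgfb2, overlapped. Ltbp4 over Tgfbr2, Tgfbr2 over Ltbp1, Ltbp3 over Tgfb3 and Tgfb2 over Tgfb1 held in all 10 libraries. The receptor subunits were thus listed at very different levels, with Tgfbr2 14.1 to 39.6 times Tgfbr1 per kilobase in MRC and 13.5 to 23.2 times in MCi.

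The genes whose log2 CPM followed each ligand most closely over the 10 libraries were sought among 9576 genes with a mean of at least 10 CPM, as a description without a test. For Tgfb3 they were Slit2 (Pearson r = 0.971), the collagen gene Col1a1 (r = 0.971) and Fam171a1 (r = 0.970). For Tgfb2 they were Rab23 (r = 0.980), Clip2 (r = 0.968) and Hipk1 (r = 0.968), and for Tgfb1 they were Aars (r = 0.903), Eif2b1 (r = 0.901) and Wdr5 (r = 0.875). All these values share the same 10 libraries (n = 10), among which MRC4 and MRC5 stand apart.

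Of 20 genes that carry or restrain the signal inside the cell or at its surface, 19 were tested and 0 were called between MRC and MCi with all 10 libraries (background 0.437%). By DESeq2 2 were called, where 7.02% of all tested genes were, and the same number had an unadjusted p under 0.05 by edgeR, as did 16.7% of all tested genes. These were Tgfb1i1, a coactivator at focal adhesions, at 186 ± 40.3 CPM in MRC against 307 ± 45.6 CPM in MCi (log2 fold change −0.72 ± 0.20 SE, edgeR adjusted p = 0.146), and Eng, the co-receptor endoglin, at 79.0 ± 30.7 CPM in MRC against 141 ± 20.9 CPM in MCi (−0.84 ± 0.27 SE, edgeR adjusted p = 0.195; SD, n = 5 each). Eng had no overlap between the groups, at 45.2 to 115 CPM in MRC and 119 to 170 CPM in MCi, as did 3.79% of all tested genes. Next by p came the repressor Tgif1, at 18.6 ± 5.17 CPM in MRC against 26.1 ± 3.91 CPM in MCi, and the inhibitory Smad6, at 9.46 ± 3.92 CPM in MRC against 18.0 ± 10.5 CPM in MCi (edgeR adjusted p = 0.311 and 0.371). The median log2 fold change of the 19 genes was −0.05, against 0.01 over all tested genes.

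Of 21 names of genes that hold the latent complex or release the ligand, 20 were found, 18 were tested and 0 were called (background 0.437%), with 0 at an unadjusted p under 0.05 by edgeR (background 16.7%) and 0 called by DESeq2 (background 7.02%). The smallest p values belonged to Emilin1, a matrix inhibitor of TGF-beta processing (785 ± 118 CPM in MRC against 1079 ± 268 CPM in MCi), the fibrillin gene Fbn2 (8.03 ± 7.94 CPM in MRC against 24.8 ± 18.8 CPM in MCi), the integrin gene Itgb1 (969 ± 286 CPM in MRC against 1310 ± 60.8 CPM in MCi) and the protease gene Mmp2 (1765 ± 390 CPM in MRC against 2271 ± 353 CPM in MCi; SD, n = 5 each). Their edgeR adjusted p values were 0.326 for Emilin1, 0.355 for Fbn2, 0.366 for Itgb1 and 0.429 for Mmp2. Fbn2 was at 1.25 and 0.592 CPM in MRC4 and MRC5, below the other 8 libraries. The median of the 18 genes was −0.28.

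Of 20 names of genes known to respond to TGF-beta, 18 were found and tested and 1 was called, Acta2, lower in MRC (background 0.363% lower). At an unadjusted p under 0.05 by edgeR there were 5, all with lower levels in MRC, against 6.09% of all tested genes in that direction. DESeq2 called 4, all lower in MRC, against 2.48% of all tested genes. Acta2, which encodes smooth muscle alpha-actin, had 369, 421, 489, 585 and 350 CPM in MRC1 to MRC5, against 1117, 1479, 1769, 1131 and 1131 CPM in MCi1 to MCi5. Every MRC library was below every MCi library, and the log2 fold change was −1.58 ± 0.22 (SE; edgeR adjusted p = 0.0140). Tagln, another actin-associated gene of contractile cells, had 159 ± 57.7 CPM in MRC against 491 ± 180 CPM in MCi (SD, n = 5 each; −1.62 ± 0.32 SE, edgeR adjusted p = 0.0583), and was called without MRC4 and MRC5 (adjusted p = 0.0362 by edgeR). The feedback inhibitors Ldlrad4 (18.4 ± 4.80 CPM in MRC against 32.4 ± 3.16 CPM in MCi) and Pmepa1 (208 ± 33.7 CPM in MRC against 319 ± 47.1 CPM in MCi) also had no overlap between the groups but missed the threshold (edgeR adjusted p = 0.128 and 0.165). Of all tested genes 3.79% had no such overlap. The remaining gene of the 5 was Ctgf, which encodes a matricellular protein, at 108 ± 42 CPM in MRC against 190.1 ± 44 CPM in MCi (log2 fold change −0.82 ± 0.31 SE, edgeR adjusted p = 0.238). Without MRC4 and MRC5, 4 of the 18 genes had higher and 5 lower levels in MRC at an unadjusted p under 0.05 (edgeR). That threshold was passed by 11.9% of all tested genes. In MRC1 to MRC3, Col1a1, Col1a2, Col3a1 and Lox (mean 223 CPM against 135 CPM in MCi) lay above all MCi libraries. Acta2, Tagln, Ldlrad4 and Pmepa1 lay below all of them, and 9.57% of all tested genes separated in either way. Summed markers of smooth muscle and pericytes were 705 to 1430 CPM in MRC and 1480 to 2224 CPM in MCi. Of the 6 genes of this list Myh11 alone lay below all MCi libraries in every MRC library, and the other 5 overlapped. Cnn1 averaged 39.3 CPM in MRC against 117 CPM in MCi, Actg2 73.0 against 197 CPM and Cspg4 101 against 226 CPM. Des averaged 185 CPM in MRC against 150 CPM in MCi, and the pericyte gene Rgs5 533 against 558 CPM. In MRC1 to MRC3, 3 of the 6 genes (Myh11, Cnn1 and Actg2) lay below all MCi libraries. The part of these markers in the levels of Acta2 and Tagln was not tested. Acta2 itself was lower in MRC with replicates 4 and 5 alone as well, at −1.33 (edgeR adjusted p = 0.0218). Tagln was not called there, at −0.99 (edgeR adjusted p = 0.127).

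With replicates 4 and 5 alone, 5 of 19 signal transduction genes, 13 of 20 latency and activation genes and 11 of 18 response genes were called lower in MRC, and 0, 0 and 1 were called higher, against a background of 10.7% called lower and 15.5% called higher. In replicates 1 to 3 alone the numbers called were 0 of 19, 0 of 18 and 2 of 18 (background 0.801%), the last being Acta2 and Tagln. The 3 lists, the 10 genes and the background all held more calls with replicates 4 and 5 alone. There the MRC libraries were those with high epithelial markers, and MCi4 and MCi5 were the most alike pair of either group. The part of each in these counts was not tested.

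**Figure D5:**
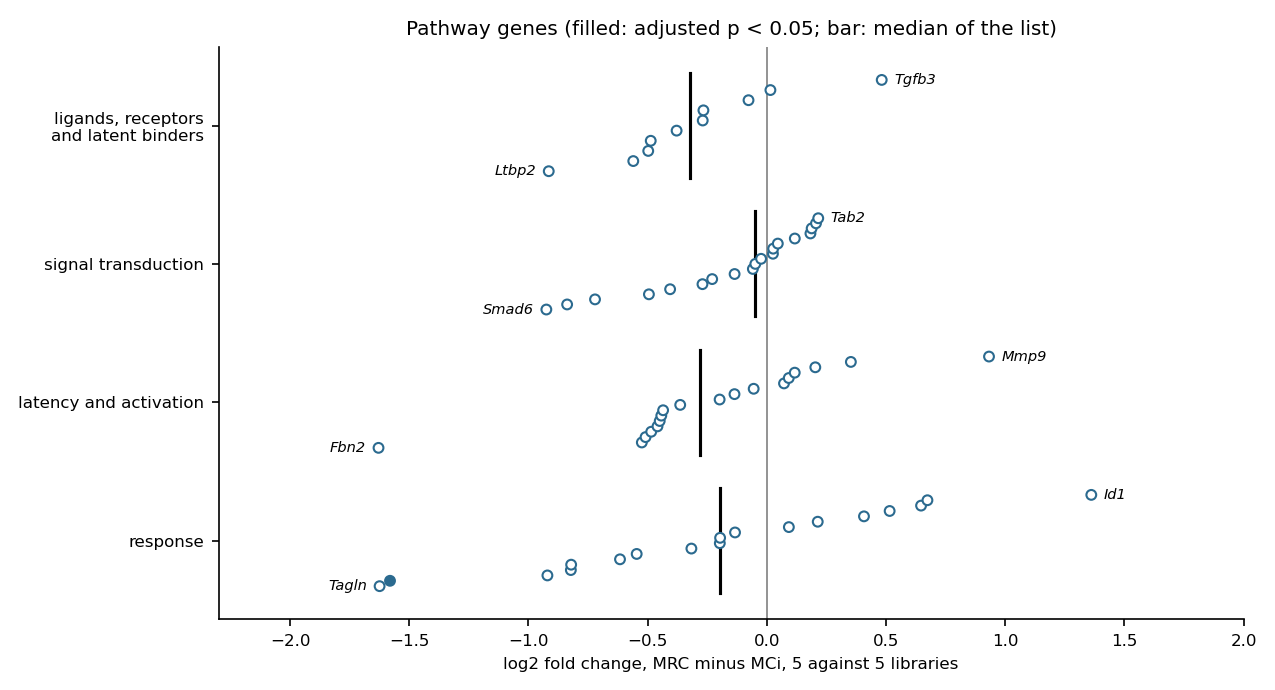
Log2 fold change, MRC minus MCi, with 5 against 5 libraries (horizontal axis) for each tested gene of the ligand, receptor and binder group and of the 3 pathway lists, with filled points where the edgeR adjusted p was under 0.05 and a bar at each list's median. The single filled point is Acta2 at −1.58, and the medians lie at −0.32, −0.05, −0.28 and −0.20.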

How the data were processed

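Each of the 10 libraries (5 MRC, 5 MCi, grouped by the MAdCAM1 label) has a table deposited by the authors. Per the file headers, it lists 47643 genes with 3 counts (reads in exons, those of them placed uniquely, and reads in the gene including introns), exon length and RPKM values made by the authors. The submitters' processing notes name GRCm38, while aligner, annotation and any pooling of animals were not given in the sources used here. Per the labels' protocols, cDNA was amplified with a SMART-Seq v4 kit, which does not mark strand, so reads of a gene and of an overlapping antisense gene cannot be told apart. Without molecular identifiers, floors cover counting error only.

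Deposited counts of total exon reads were tested with edgeR 4.0.16 in R 4.3.3 (filterByExpr at its count limits of 10 and 15 in total, TMM factors, robust quasi-likelihood fit, contrast MRC minus MCi). Benjamini-Hochberg adjustment ran over all tested genes, with calls at an adjusted p under 0.05, and each SE is the log2 fold change divided by the root of F. CPM divides exon reads by the library total and its TMM factor. The procedure was tested on simulated counts, in which all libraries of a group had the same means. No libraries were set apart there like MRC4 and MRC5 or closely alike like MCi4 and MCi5, so the simulation does not cover these features.

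The 10 genes, the pathway and marker lists and the alternatives were chosen with earlier results of these data known. Named are the 10 genes, the 4 genes of smallest p from each pathway list, the sorting antigens, and for each ligand the 3 genes of highest Pearson correlation. Ctgf and Lox were named after their values were seen. Alternatives were DESeq2 1.42.0, other scalings and filters, a replicate block, leaving out libraries, unique or gene reads, and limma 3.58.1 on RPKM. Chosen after seeing the data were the alternatives within library sets and the test of the difference between the sets. Of the list names, Lrrc33, Ccn2 and Ccn1 are other names of Nrros, Ctgf and Cyr61 and were not matched separately. Promoter sequences are from RefSeq (GRCm38.p6). Figures used matplotlib 3.10.9 and summaries pandas 2.3.3 and numpy 2.4.6, under Python 3.11.15.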

Additional observations from a re-analysis of the deposited data

Results flagged for a closer look

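In 44 groups of 5 libraries, made of the CPM values of the 10 genes and the 12 pathway genes named, 2 held a library far from the others by Dixon's test (critical value 0.710), where chance flags about 1 in 20 groups. Tgfb1i1 was at 227 CPM in MCi2, the lowest of MCi, with a gap to the next library of 0.796 of the group's range. Fbn2 was at 57.3 CPM in MCi3, the highest of MCi, with a gap of 0.719 of the range.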

How the results depend on the processing

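For the 10 genes with all libraries, 27 alternatives were run, and the number called stayed at 0 in all but 2 of them: 1 without MRC4 and MRC5 and 9 with replicates 4 and 5 alone. The sign of the log2 fold change turned for 5 genes. Tgfb3 was at −0.82 with replicates 4 and 5 alone (called), and at −0.0017, −0.012 and −0.0017 in limma on log2(RPKM + 1), log2(RPKM + 0.1) and log2(RPKM + 1) without a filter. Tgfbr3, Ltbp1 and Ltbp3 were at 0.26, 0.040 and 0.22 without MRC4 and MRC5 and at 0.11, 0.42 and 0.38 with replicates 1 to 3. Ltbp4 was at −0.046 with upper-quartile factors, −0.20 without TMM factors, −0.0016 without a filter, −0.12 with the covariate for replicates 4 and 5, −1.09 with replicates 4 and 5 alone (called), and −0.37, −0.37 and −0.37 in the 3 limma settings. Leaving out 1 library at a time moved Ltbp3 between −0.21 and 0.067 and Ltbp4 between −0.22 and 0.18. With 0 calls each, it also moved Tgfb2 between −0.67 (without MRC2) and −0.20 (without MCi1), Tgfb3 between 0.25 (without MRC2) and 0.69 (without MRC5), Tgfbr1 between −0.73 (without MRC1) and −0.33 (without MRC4), Tgfbr2 between −0.56 (without MRC2) and −0.24 (without MRC4), Tgfbr3 between −0.46 (without MRC1) and −0.045 (without MRC5) and Ltbp1 between −0.45 (without MRC1) and −0.12 (without MRC4). The cause of these turns was not tested.

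Same-numbered libraries deviated together with correlations from −0.23 to 0.56, over 0.1 for 3 of 5 pairs, so the numbers were not taken to pair the samples, and 2 MRC libraries were closest to their own number. With the replicate number as a block, Ltbp4 was at −0.12, 0 of the 10 genes were called and 49 of all genes were called.

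Of all tested genes, 53 were called (9 higher and 44 lower in MRC). The number was 851 by DESeq2 (550 higher and 301 lower), 140 without TMM factors, 128 without MRC4 and MRC5, 95 with replicates 1 to 3, 3460 with replicates 4 and 5, 206 with the covariate, 242, 161 and 127 in the 3 limma settings (15 higher and 227 lower, 10 and 151, 6 and 121), 12 at a threshold of 0.01 and 19 to 49 leaving out 1 library. The median of all genes shifted by −0.10 with upper-quartile factors and −0.23 without TMM factors. Response genes called numbered 4 by DESeq2, 2 with upper-quartile factors, without TMM factors, without a filter, without MRC4 and MRC5, with replicates 1 to 3 and with the covariate, 12 with replicates 4 and 5, 4, 4 and 2 in limma, 0 at a threshold of 0.01 and 1 to 2 leaving out 1 library. Signal transduction genes called numbered 2 by DESeq2, 1 with the covariate and in limma on log2(RPKM + 1), and 5 with replicates 4 and 5, and latency genes called were 13 there.

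Within the library sets, the number of the 10 genes called without MRC4 and MRC5 was 2 by DESeq2, 0 with unique exon reads and 0 to 1 leaving out another library. It was 1 by DESeq2 with replicates 1 to 3, and 3 to 9 leaving out a library with replicates 4 and 5. The difference between the sets was called for 6 genes under each of the 3 other settings run, the same 6 genes each time. Depth limits Tgfb1 most, at 31 to 115 reads per library.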
